A study of Mus musculus with 8 samples.

Results

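The 32 genes described here encode enzymes of cholesterol and fatty acid synthesis, the proteins that control these enzymes and the proteins that move sterols inside cells. They were chosen by name, with earlier results of these data known. On the arrays, 32 of 32 were found among the 27962 gene names. Arrays were run on RNA of MC3T3-E1, an osteoblast-like line from mouse skull, co-cultured with tumour cells and treated with MRK-003 or with DMSO. MRK-003 blocks gamma-secretase, the enzyme that cuts Notch receptors to free their signalling fragment. The 4 groups were Jagged1-overexpressing tumour cells with MRK-003, vector tumour cells with MRK-003, Jagged1 tumour cells with DMSO and vector tumour cells with DMSO. Each group had 2 biological replicates, with 1 array each. All 4 groups held tumour cells, so none is osteoblasts alone. Not given in the sources used here are the tumour line and its species, the dose and time of MRK-003, and any separation of the osteoblasts from the tumour cells.

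Cells build cholesterol from acetyl-CoA through mevalonate and farnesyl diphosphate to squalene, which is closed into lanosterol and trimmed to cholesterol. Most genes of this route are switched on together by SREBP transcription factors, which the escort protein Scap carries out of the endoplasmic reticulum when sterols are scarce and which Insig proteins hold back when sterols are plentiful. SREBP factors also drive fatty acid synthesis, and dividing cells need both products for new membranes.

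Each level below is the log2 ratio of the co-culture in Cy3 over a common mouse reference RNA in Cy5. Dye bias stays in a level and is shared by all groups in a difference. The median Cy3 signal was 76.5 to 204 per array, and 86.0% to 89.4% of spots were well above background on the arrays of replicate 1, against 71.4% to 78.6% on those of replicate 2. Slide 1 held replicate 1 of every group and slide 2 held replicate 2, so replicate and slide coincide. Of 9 osteoblast markers, 9 were well above background on 8 arrays. Among them Col1a2 was saturated in Cy3 on 8 arrays, Col1a1 on 7, Spp1 on 6 and Sparc on 1. Hey1, a repressor induced by Notch, was 3.76 ± 0.17 higher with Jagged1 than with vector cells in DMSO (log2 difference ± SE, limma, adjusted p = 0.00231), and Jag1 was 1.26 ± 0.12 higher (adjusted p = 0.0175). The Jag1 level was 2.04 ± 0.07 with Jagged1 cells and MRK-003, 1.92 ± 0.13 with vector cells and MRK-003, 3.32 ± 0.02 with Jagged1 cells and DMSO, and 2.05 ± 0.14 with vector cells and DMSO (SD, n = 2). Jagged1 minus vector was thus 0.12 ± 0.12 for Jag1 in MRK-003, with overlapping arrays, so Jag1 does not check the labels of the MRK-003 arrays. Whether the probe reads the Jag1 RNA of the tumour cells is not given in the sources used here. In bulk RNA, fewer cells of a type and less RNA per cell cannot be told apart.

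Under MRK-003, 5 of the 32 genes rose in the Jagged1 co-cultures: the sterol enzymes Ebp, Sc5d, Sc4mol (now Msmo1) and Hmgcs1, and the fatty acid elongase Elovl6. Their log2 differences ran from 0.60 for Hmgcs1 to 1.46 for Ebp, a 2.74-fold change. In DMSO the same 5 genes were 0.67 to 1.08 lower on the log2 scale with Jagged1 than with vector cells, and none of these differences passed (adjusted p = 0.0591 to 0.199), though 5 of 5 did with the slide as a block. With the block and no limit on the local background, only Ebp of the 32 passed in DMSO. These 2 comparisons share the Jagged1 DMSO arrays, so their values are not independent. All 32 genes were well above background on 8 arrays and entered the test. On build mm7 the files place the probes of Ebp on chromosome X at 6618487 to 6618546, of Sc5d on chromosome 9 at 42189144 to 42189203, of Sc4mol on chromosome 8 at 63138214 to 63138273 and of Elovl6 on chromosome 3 at 129477684 to 129477743. The Hmgcs1 probe lies on an unplaced contig there.

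By limma with Benjamini-Hochberg adjustment over 22796 genes, the 5 genes that passed as higher under MRK-003 with Jagged1 cells were 15.6% of the 32, against 1.07% of all genes tested. With no limit on the local background 1 of 32 passed (Ebp). With the slide as a block, 8 of 32 passed as higher, which is 25% of them against 5.86% of all genes, and 2 of 32 passed as lower, against 3.93% of all genes. The MRK-003 arrays lay above the DMSO arrays with no overlap for 14 of 32, which is 43.8% against 23.9% of all genes. With Jagged1 against vector cells in DMSO, 0 of 32 passed as lower, against 0.0395% of all genes, and 11 of 32 had an unadjusted p under 0.05, against 1783 of the 22796 genes. With the slide as a block, 7 of 32 passed as lower (21.9%, against 2.46% of all genes). The Jagged1 DMSO arrays lay below the vector DMSO arrays with no overlap for 16 of 32, or 50% against 21.8% of all genes. The median log2 difference of the 32 genes was 0.20 for MRK-003 minus DMSO with Jagged1 cells and -0.19 for Jagged1 minus vector in DMSO, against 0.0094 and -0.0076 over all genes. Leaving out 1 array moved these medians by over 1.5 times. The first was 0.46 without Jagged1 MRK-003 replicate 2, 0.051 without Jagged1 MRK-003 replicate 1, 0.32 without Jagged1 DMSO replicate 1 and 0.090 without Jagged1 DMSO replicate 2. The second was -0.36 without Jagged1 DMSO replicate 1, -0.060 without Jagged1 DMSO replicate 2 and -0.37 without vector DMSO replicate 2. These fits had no slide term, and replicate equals slide, so leaving out an array also left the slides unequal between groups. The changes are therefore not those of a single array alone. Within slide 1 the median was 0.27 for MRK-003 minus DMSO with Jagged1 cells and -0.23 for Jagged1 minus vector in DMSO. Within slide 2 it was 0.17 and -0.17.

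**Figure D1:**
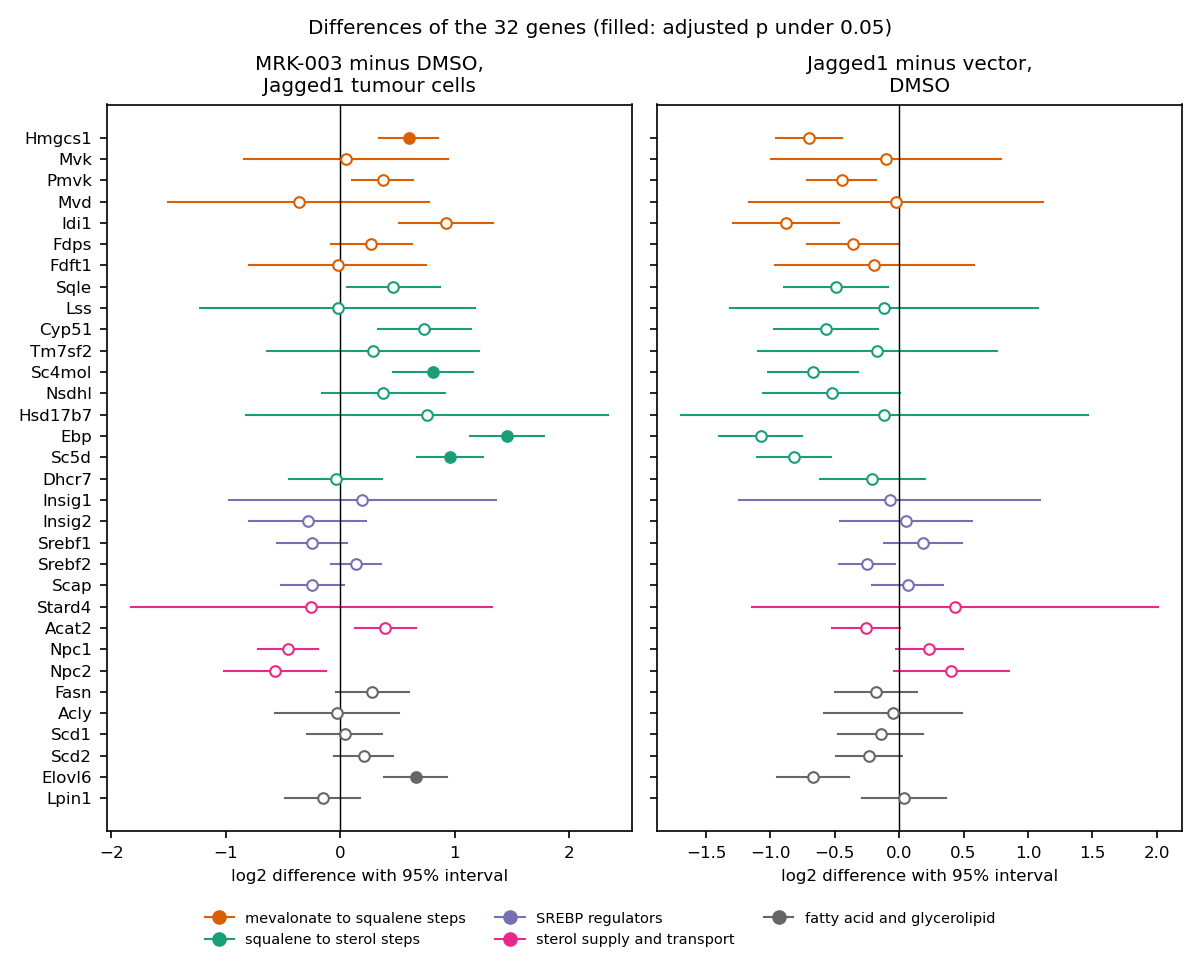
Log2 difference of each of the 32 genes with its 95% interval from limma, for MRK-003 minus DMSO with Jagged1 cells (left) and Jagged1 minus vector in DMSO (right). Colours give the role, and filled points passed at an adjusted p under 0.05. The 5 filled points lie between 0.60 and 1.46, and the wide intervals belong to genes whose levels differed between slides.

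The first 7 genes make squalene from acetoacetyl-CoA. In the Jagged1 co-cultures 5 of 7 were higher and 2 lower under MRK-003, with a median log2 difference of 0.27, and 1 passed. Of all genes, 1.07% passed as higher there. In DMSO, 7 of 7 differences of Jagged1 minus vector were negative, with a median of -0.36, and 0 passed (2 with the slide as a block). With the block 2.46% of all genes passed as lower.

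Hmgcs1, the synthase that makes HMG-CoA for the mevalonate route, had a log2 level of 1.53 and 1.40 with Jagged1 cells and MRK-003, 1.32 and 1.50 with vector cells and MRK-003, 0.92 and 0.81 with Jagged1 cells and DMSO, and 1.59 and 1.54 with vector cells and DMSO. The 2 Jagged1 DMSO arrays were the lowest and overlapped no other group. Under MRK-003 with Jagged1 cells Hmgcs1 rose by 0.60 ± 0.11 on the log2 scale (SE, adjusted p = 0.0485, and 0.0141 with the slide as a block). In DMSO its difference with Jagged1 was -0.70 ± 0.11 (adjusted p = 0.0873, and 0.0170 with the block). The dimmer Hmgcs1 probes gave 0.50 and 0.37 under MRK-003 with Jagged1 cells, and -0.65 and -0.36 with Jagged1 in DMSO.

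Idi1, the isomerase that makes the reactive building block of isoprenoids, had a log2 level of 1.19 and 1.04 with Jagged1 cells and MRK-003, 1.04 and 1.08 with vector cells and MRK-003, 0.41 and -0.03 with Jagged1 cells and DMSO, and 1.21 and 0.93 with vector cells and DMSO. It too was lowest on both Jagged1 DMSO arrays. Its difference under MRK-003 with Jagged1 cells was 0.93 ± 0.17 (SE, adjusted p = 0.0532), which passed with the slide as a block (adjusted p = 0.00534). In DMSO its difference with Jagged1 was -0.88 ± 0.17 (adjusted p = 0.155, and 0.0146 with the block). The files place this probe on chromosome 2 of mm7, whereas a RefSeq table of GRCm38.p6 lists Idi1 on chromosome 13, so the probe's target is uncertain. The dimmer Idi1 probe, which gave 0.53 and -0.70 in these comparisons, is placed beside it on chromosome 2 and shares this doubt.

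Of the other 5 genes, the kinase Pmvk differed by 0.37 ± 0.11 under MRK-003 with Jagged1 cells and by -0.45 ± 0.11 with Jagged1 in DMSO, and the farnesyl diphosphate synthase Fdps by 0.27 ± 0.15 and -0.36 ± 0.15. None of these passed. The Jagged1 DMSO arrays of both genes lay below every array of the other groups. Mvk, Mvd and Fdft1, the mevalonate kinase, the decarboxylase that follows it and squalene synthase, had intervals that spanned 0 in both comparisons. Their levels differed more between slides than between groups: Mvd was at 0.60 and -0.52 in the Jagged1 MRK-003 group and at 0.69 and 0.16 in the vector DMSO group.

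The next 10 genes turn squalene into cholesterol, and they held 3 of the 5 genes that passed. Under MRK-003 with Jagged1 cells 8 of 10 were higher, with a median log2 difference of 0.60, and 3 passed (5 with the slide as a block). Of all genes, 1.07% passed as higher there, or 5.86% with the block. In DMSO, 10 of 10 differences of Jagged1 minus vector were negative, with a median of -0.51, and 0 passed (4 with the block). With the block 2.46% of all genes passed as lower.

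Ebp, the isomerase that shifts a double bond within the sterol rings, had a log2 level of 0.78 and 1.03 with Jagged1 cells and MRK-003, 0.71 and 0.89 with vector cells and MRK-003, -0.63 and -0.47 with Jagged1 cells and DMSO, and 0.44 and 0.61 with vector cells and DMSO. The Jagged1 DMSO arrays were the only ones below the reference RNA. Ebp rose by 1.46 ± 0.14 under MRK-003 with Jagged1 cells (SE, adjusted p = 0.00926), by 1.41 on slide 1 and 1.50 on slide 2. Between Jagged1 and vector cells in DMSO it differed by -1.08 ± 0.14 (adjusted p = 0.0591). This passed with the slide as a block (adjusted p = 0.00217) and with median centring. It also passed with the mean of a gene's probes, but Ebp had no second probe. That setting left the values of Ebp unchanged and altered only those of other genes.

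Sc5d, the desaturase of the next step, had a log2 level of 1.09 and 1.13 with Jagged1 cells and MRK-003, 1.08 and 1.14 with vector cells and MRK-003, 0.30 and 0.00 with Jagged1 cells and DMSO, and 1.01 and 0.93 with vector cells and DMSO. The Jagged1 DMSO group lay below all other arrays. Sc5d rose by 0.96 ± 0.12 under MRK-003 with Jagged1 cells, a 1.94-fold change (SE, adjusted p = 0.0169). In DMSO its difference with Jagged1 was -0.82 ± 0.12 (adjusted p = 0.0810, and 0.0126 with the slide as a block). The dimmer Sc5d probe gave smaller differences of 0.45 and -0.43 in these comparisons.

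Sc4mol, the oxidase that starts the removal of methyl groups from the sterol ring, had a log2 level of 0.71 and 0.66 with Jagged1 cells and MRK-003, 0.69 and 0.64 with vector cells and MRK-003, 0.09 and -0.33 with Jagged1 cells and DMSO, and 0.59 and 0.50 with vector cells and DMSO. Again the Jagged1 DMSO arrays were lowest, and they were farther apart than the arrays of the other groups. Sc4mol rose by 0.81 ± 0.15 under MRK-003 with Jagged1 cells (SE, adjusted p = 0.0475). In DMSO its difference with Jagged1 was -0.67 ± 0.15 (adjusted p = 0.199, and 0.0269 with the slide as a block).

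**Figure D2:**
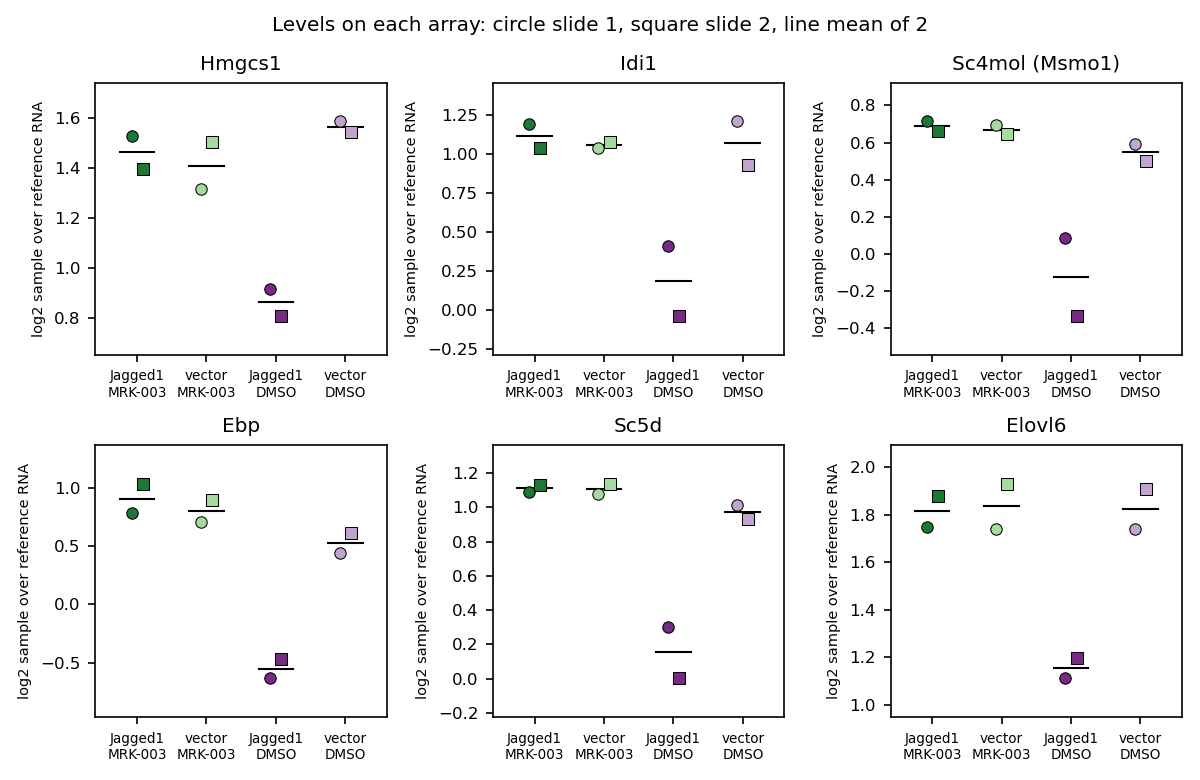
Log2 level over the reference RNA of Hmgcs1, Idi1, Sc4mol, Ebp, Sc5d and Elovl6 on each of the 8 arrays, by group, with circles for slide 1, squares for slide 2 and a line at the mean of 2. In all 6 panels both Jagged1 DMSO arrays lie below the arrays of the other 3 groups.

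Among the other 7 sterol genes, Cyp51, the lanosterol demethylase, and Sqle, the squalene epoxidase, passed under MRK-003 with Jagged1 cells only with the slide as a block. Cyp51 differed by 0.74 ± 0.17 (adjusted p = 0.0972, and 0.0211 with the block) and Sqle by 0.46 ± 0.17 (adjusted p = 0.292, and 0.0231 with the block). In DMSO with Jagged1 their differences were -0.57 ± 0.17 and -0.49 ± 0.17, and the second passed with the block (adjusted p = 0.0359). Nsdhl, a dehydrogenase that acts with Sc4mol, differed by 0.38 ± 0.22 and -0.52 ± 0.22 in these comparisons and did not pass in either fit. Lss, Tm7sf2, Hsd17b7 and Dhcr7, which are lanosterol synthase and 3 reductases of the later steps, had intervals that spanned 0 in both. On its brightest probe Hsd17b7 was at 2.90 and 1.68 with Jagged1 cells and MRK-003 and at 2.53 and 0.76 with vector cells and DMSO. Its slides thus differed by more than its groups on that probe. The brightest probe was used for each gene, and the second probe of Lss gave 0.40 and -0.45 where the brightest gave -0.02 and -0.12. The second probe of Hsd17b7 gave 0.86 and -0.46, against 0.76 and -0.12. Dimmer Cyp51 probes gave 1.13 and 0.67 under MRK-003, and -0.95 and -0.61 in DMSO. Those of Nsdhl gave 0.29, 0.24 and -0.04, and -0.37, -0.44 and -0.05. That of Dhcr7 gave -0.05 and -0.26.

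The 6 fatty acid and glycerolipid genes held 1 that passed. Elovl6, which lengthens palmitate to stearate, had a log2 level of 1.75 and 1.88 with Jagged1 cells and MRK-003, 1.74 and 1.93 with vector cells and MRK-003, 1.11 and 1.20 with Jagged1 cells and DMSO, and 1.74 and 1.91 with vector cells and DMSO. The other 3 groups overlapped, and the Jagged1 DMSO arrays were below all of them. Elovl6 rose by 0.66 ± 0.12 under MRK-003 with Jagged1 cells (SE, adjusted p = 0.0452). In DMSO its difference with Jagged1 was -0.67 ± 0.12 (adjusted p = 0.119, and 0.00885 with the slide as a block).

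The other 5 genes of this group did not pass in any comparison or with the block. They were Fasn, the fatty acid synthase, Acly, which supplies its acetyl-CoA, the desaturases Scd1 and Scd2, and Lpin1, a phosphatidate phosphatase. Fasn differed by 0.28 ± 0.13 under MRK-003 with Jagged1 cells and by -0.18 ± 0.13 with Jagged1 in DMSO. The intervals of these differences were -0.04 to 0.60 and -0.50 to 0.14, so a change of the size measured for Elovl6 lay outside both. Scd2 was saturated in the reference channel on 1 array.

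The 5 regulators of SREBP did not pass in any of the comparisons, with or without the slide as a block. Srebf2, the factor that acts mainly on sterol genes, had a log2 level of -0.16 and -0.21 with Jagged1 cells and MRK-003, -0.26 and -0.25 with vector cells and MRK-003, -0.28 and -0.36 with Jagged1 cells and DMSO, and -0.02 and -0.12 with vector cells and DMSO. Its difference was 0.14 ± 0.09 under MRK-003 with Jagged1 cells and -0.25 ± 0.09 with Jagged1 in DMSO (adjusted p = 0.589 and 0.536), and 1 of its dimmer probes gave 0.20 in the second comparison.

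Srebf1, the gene of the factors that act more on fatty acid genes, had a log2 level of -0.37 and -0.61 with Jagged1 cells and MRK-003, -0.46 and -0.60 with vector cells and MRK-003, -0.26 and -0.24 with Jagged1 cells and DMSO, and -0.32 and -0.55 with vector cells and DMSO. Its Jagged1 DMSO arrays were the highest, which is the opposite order to Hmgcs1 and Ebp, with differences of -0.24 ± 0.13 under MRK-003 and 0.18 ± 0.13 with Jagged1 in DMSO (SE, adjusted p = 0.495 and 0.792).

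Insig1, which retains the Scap complex and is itself an SREBP target, had a log2 level of 0.63 and -0.26 with Jagged1 cells and MRK-003, 0.90 and -0.23 with vector cells and MRK-003, 0.27 and -0.29 with Jagged1 cells and DMSO, and 0.49 and -0.35 with vector cells and DMSO. All groups overlapped, and slide 1 was higher than slide 2 in each. Insig2, its relative, was at -0.13 and 0.36, -0.02 and 0.35, 0.40 and 0.40, and 0.16 and 0.53 in the same order of groups. Insig1 differed by 0.19 ± 0.49 under MRK-003 with Jagged1 cells and -0.07 ± 0.49 with Jagged1 in DMSO, and Insig2 by -0.28 ± 0.21 and 0.05 ± 0.21 (SE). With Jagged1 cells the MRK-003 arrays of Insig2 lay just below its DMSO arrays. The signs of both genes in the DMSO comparison changed when 1 array was left out: without vector DMSO replicate 1, Insig1 was at 0.35 and Insig2 at -0.13. That fit had no slide term, so its slides were unequal between groups. Within slides 1 and 2 Insig1 differed by -0.22 and 0.07 in this comparison, and Insig2 by 0.24 and -0.13. Scap differed by -0.24 ± 0.12 and 0.07 ± 0.12.

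The 4 genes of sterol supply and transport held 2 with differences opposite in sign to those of the synthesis genes above. Npc2, which hands cholesterol to Npc1 inside lysosomes, had a log2 level of -0.39 and -0.87 with Jagged1 cells and MRK-003, -0.59 and -0.88 with vector cells and MRK-003, -0.11 and -0.02 with Jagged1 cells and DMSO, and -0.35 and -0.58 with vector cells and DMSO. The Jagged1 DMSO arrays of Npc2 were the highest. Its difference under MRK-003 with Jagged1 cells was -0.57 ± 0.19 (SE, adjusted p = 0.237), and that of Npc1, the membrane protein that exports the sterol, was -0.46 ± 0.11 (adjusted p = 0.108). Both passed as lower with the slide as a block (adjusted p = 0.0419 for Npc2 and 0.0381 for Npc1). For Jagged1 minus vector in DMSO they differed by 0.40 ± 0.19 and 0.23 ± 0.11, which did not pass in either fit.

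Stard4, a soluble sterol carrier, had a log2 level of 1.46 and 0.02 with Jagged1 cells and MRK-003, 1.12 and -0.05 with vector cells and MRK-003, 1.16 and 0.82 with Jagged1 cells and DMSO, and 1.29 and -0.18 with vector cells and DMSO. The slides differed by over 1 on this scale in 3 of 4 groups, and the groups overlapped. Its 2 dimmer probes had the opposite sign to the brightest in both comparisons: 0.37 and 0.42 against -0.25 for MRK-003 minus DMSO with Jagged1 cells, and -0.45 and -0.45 against 0.43 for Jagged1 minus vector in DMSO. No direction is given for Stard4. Acat2, the thiolase that makes acetoacetyl-CoA, differed by 0.40 ± 0.11 and -0.26 ± 0.11 and did not pass.

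**Figure D3:**
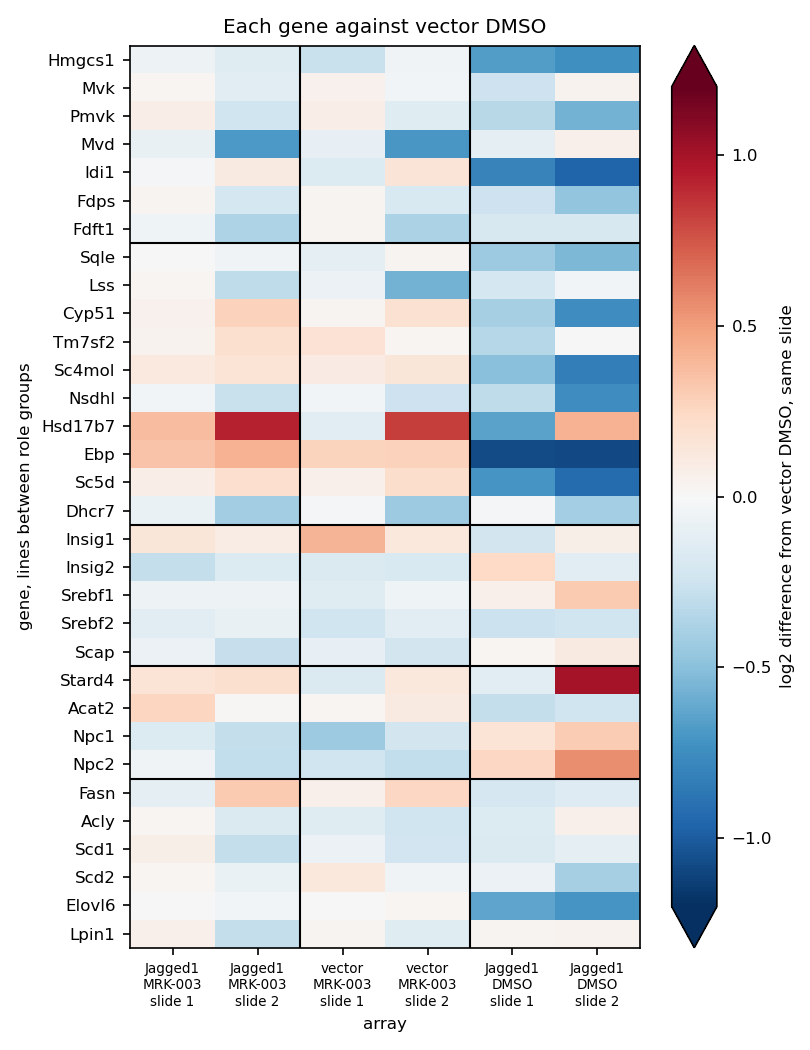
Log2 difference of each of the 32 genes (rows, in role order) from the vector DMSO array of the same slide, for both arrays of the Jagged1 MRK-003, vector MRK-003 and Jagged1 DMSO groups (columns). Ebp, Idi1, Sc5d, Hmgcs1, Elovl6 and Sc4mol are blue (lower) on both Jagged1 DMSO arrays, and Mvd and Lss are lower on slide 2 than on slide 1 in both MRK-003 groups.

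Promoters are shown for the 5 genes that passed, which were picked by passing as higher in the same comparison. The promoters are RefSeq sequences of GRCm38.p6, from 250 bases before to 50 after the start, on the gene's strand. They lie at chr13:119690101-119690400 (plus strand, Hmgcs1), chr8:64733529-64733828 (minus, Msmo1), chrX:8193463-8193762 (minus, Ebp), chr9:42264251-42264550 (minus, Sc5d) and chr3:129532136-129532435 (plus, Elovl6). Capitals mark matches on either strand to CCAAT, the letters bound by NF-Y, and to TCACNCCAC, a form of the sterol regulatory element that SREBP binds.
Hmgcs1: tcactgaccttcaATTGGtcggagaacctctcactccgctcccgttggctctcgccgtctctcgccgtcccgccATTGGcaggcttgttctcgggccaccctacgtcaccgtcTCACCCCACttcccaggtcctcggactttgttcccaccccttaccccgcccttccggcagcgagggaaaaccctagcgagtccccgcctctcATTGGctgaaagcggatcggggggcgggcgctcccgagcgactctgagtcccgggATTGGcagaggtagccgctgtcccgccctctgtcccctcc
Msmo1: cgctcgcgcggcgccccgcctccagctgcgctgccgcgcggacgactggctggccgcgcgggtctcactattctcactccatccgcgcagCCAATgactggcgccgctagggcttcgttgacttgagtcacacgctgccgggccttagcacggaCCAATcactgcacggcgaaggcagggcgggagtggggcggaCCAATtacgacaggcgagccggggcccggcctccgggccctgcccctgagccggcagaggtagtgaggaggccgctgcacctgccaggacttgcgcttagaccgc
Ebp: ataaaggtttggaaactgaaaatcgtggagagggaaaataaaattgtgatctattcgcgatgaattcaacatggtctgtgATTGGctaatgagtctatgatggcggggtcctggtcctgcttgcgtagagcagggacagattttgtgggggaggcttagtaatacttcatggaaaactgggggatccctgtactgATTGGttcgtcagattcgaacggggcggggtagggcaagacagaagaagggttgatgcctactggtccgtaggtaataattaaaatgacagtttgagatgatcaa
Sc5d: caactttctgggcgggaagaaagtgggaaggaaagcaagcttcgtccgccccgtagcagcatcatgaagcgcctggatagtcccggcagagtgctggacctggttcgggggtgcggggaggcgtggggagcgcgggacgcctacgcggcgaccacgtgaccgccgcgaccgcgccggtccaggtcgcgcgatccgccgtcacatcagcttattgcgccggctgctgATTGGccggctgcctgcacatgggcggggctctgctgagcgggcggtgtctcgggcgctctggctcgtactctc
Elovl6: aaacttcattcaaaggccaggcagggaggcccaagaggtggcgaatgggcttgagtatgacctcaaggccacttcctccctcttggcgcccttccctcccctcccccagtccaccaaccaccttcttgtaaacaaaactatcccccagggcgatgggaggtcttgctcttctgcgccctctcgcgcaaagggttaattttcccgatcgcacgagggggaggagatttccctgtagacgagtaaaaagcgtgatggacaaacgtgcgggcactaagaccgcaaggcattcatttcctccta
Hmgcs1 held 4 CCAAT matches and 1 match to TCACNCCAC, which began 137 bases before the start. Msmo1 held 3 CCAAT matches, Ebp 2, Sc5d 1 and Elovl6 0, and no capital belongs to both motifs.

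Of the 32 genes, 25 had 33 promoters in the table. CCAAT was in 66.7% of these 33 promoters, against 37.4% of the 32851 promoters of the table. GGGCGG, the letters bound by Sp1, was in 75.8% against 35.7%. TCACNCCAC was in 1 of 33, or 3.03%, against 1.24%, and GTGGGAA, the letters bound by RBPJ in the Notch complex, was in 3 of 33, or 9.09%, against 6.38%. The 3 genes with GTGGGAA were Hmgcs1, Nsdhl and Sc5d. Both strands were searched for each motif. These shares describe letters only, and no binding was measured.

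**Figure D4:**
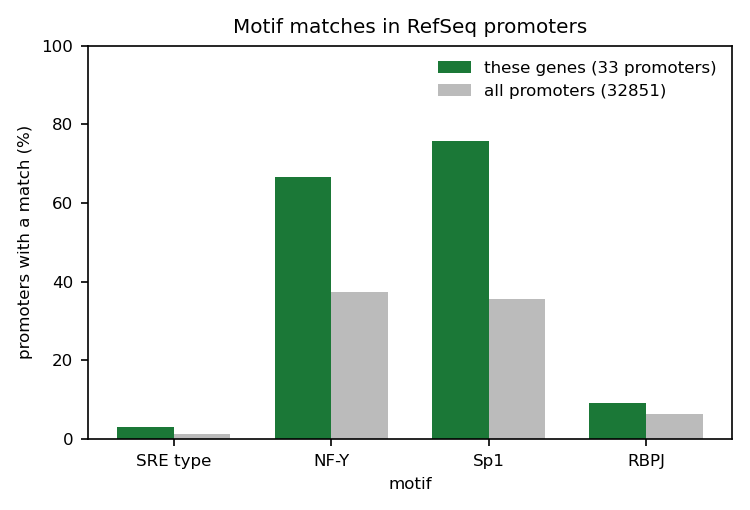
Share of promoters (percent, y axis) with at least 1 match on either strand to each of 4 motifs (x axis), for the 33 promoters of these genes and for all 32851 promoters of the table. The NF-Y bars stand at 66.7% and 37.4%, and the SRE type bars at 3.03% and 1.24%.

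With MRK-003 present, Jagged1 and vector co-cultures were close for these genes, as they were for Jag1. Differences of Jagged1 minus vector ran from -0.15 to 0.30 over the 32 genes, with a median of 0.02 against 0.0025 over all genes. None of the 32 and 0 of all genes passed in limma, and 0 of the 32 had an unadjusted p under 0.05, against 47 of all genes. Ebp differed by 0.11 (95% interval -0.22 to 0.43), Sc5d by 0.00 (-0.28 to 0.29), Sc4mol by 0.02 (-0.33 to 0.37), Hmgcs1 by 0.05 (-0.21 to 0.31), Idi1 by 0.05 (-0.36 to 0.47) and Elovl6 by -0.02 (-0.30 to 0.26). The intervals of these 6 genes leave out the size of their differences in DMSO.

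MRK-003 with vector cells gave a median log2 difference of -0.05 over the 32 genes, and 0 of 32 and 0 of all genes passed. Unadjusted, 1 of 32 and 931 of all genes had p under 0.05. Ebp differed by 0.27 (95% interval -0.05 to 0.60), Sc5d by 0.14 (-0.15 to 0.42), Hmgcs1 by -0.16 (-0.41 to 0.10) and Elovl6 by 0.01 (-0.27 to 0.29). The gene with the unadjusted p under 0.05 was Npc1, which differed by -0.33 ± 0.11.

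Whether the difference between Jagged1 and vector cells itself depended on MRK-003 was tested as an interaction, the Jagged1 difference in DMSO minus that in MRK-003. None of the 32 genes passed, 2 of all genes did, and 9 of 32 and 952 of all genes had an unadjusted p under 0.05. Ebp had an interaction of -1.18 ± 0.19 (SE, adjusted p = 0.331). With the slide as a block it was the 1 gene of 32 that passed (adjusted p = 0.0204), or 3.12% against 0.39% of all genes. The interactions of Idi1, Sc5d, Hmgcs1, Sc4mol and Elovl6 were -0.93 ± 0.24, -0.82 ± 0.17, -0.75 ± 0.15, -0.69 ± 0.21 and -0.65 ± 0.16, and did not pass in either fit. Of the genes that make squalene, 7 of 7 had a negative interaction, as did 10 of 10 of those that turn it into cholesterol.

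Proliferation markers moved in the same direction as the sterol genes. Under MRK-003 with Jagged1 cells 11 of 11 were higher, with a median log2 difference of 0.58, and 4 passed, against 1.07% of all genes. These 4 were Pcna, which holds polymerases on DNA, and the replication helicase subunits Mcm3, Mcm4 and Mcm7. Their differences were 0.90 ± 0.16, 1.02 ± 0.14, 0.79 ± 0.12 and 0.53 ± 0.09. With Jagged1 against vector cells in DMSO 11 of 11 were lower, with a median of -0.56, and 0 passed. With the slide as a block 6 passed as lower, against 2.46% of all genes. The summed Cy3 signal of the 11 markers, with each array scaled to a total of 1000000, was 2141 to 2467 with Jagged1 cells and MRK-003, 2105 to 2462 with vector cells and MRK-003, 1235 to 1374 with Jagged1 cells and DMSO, and 1945 to 2154 with vector cells and DMSO. The Jagged1 DMSO arrays were the lowest for this sum, as for Ebp and Sc5d, and the part of proliferation in the sterol results was not tested.

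Osteoblast markers moved in part with the sterol genes. Under MRK-003 with Jagged1 cells 6 of 9 were higher, with a median log2 difference of 0.17, and 0 passed. With the slide as a block 4 passed as higher, against 5.86% of all genes. Akp2, alkaline phosphatase, differed by 1.39 ± 0.36 (adjusted p = 0.134, and 0.000802 with the block), and Runx2, a regulator of bone formation, by 0.83 ± 0.23 (adjusted p = 0.162, and 0.0352 with the block). With Jagged1 against vector cells in DMSO 6 of 9 were lower, with a median of -0.11, and 0 passed. With the block 2 passed as lower, against 2.46% of all genes. These were Akp2 at -1.12 ± 0.36 and Ibsp at -0.53 ± 0.21. Other markers had mean differences of the opposite sign. Under MRK-003 with Jagged1 cells the 3 lower markers were Col1a1, Col1a2 and Sparc. Their mean log2 levels were 2.32, 1.22 and 1.57 there, against 2.73, 1.75 and 1.96 with Jagged1 cells and DMSO. For Jagged1 against vector cells in DMSO the 3 higher markers were Col1a1, Spp1 and Sparc. Col1a2 was at 1.12 and 1.32 with Jagged1 cells and MRK-003 and at 1.09 and 2.40 with Jagged1 cells and DMSO. It was thus lower under MRK-003 on slide 2 only. Cy3 was saturated for Col1a2 on 8 arrays, Col1a1 on 7, Spp1 on 6 and Sparc on 1. A saturated spot cannot follow the sample, so no direction is given for Col1a1, Col1a2 or Spp1, which the counts above include. Akp2, Runx2 and Ibsp were chosen after their values were seen, and the part of osteoblast state in the sterol results was not tested.

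Markers of other cells were also read. Of 10 epithelial markers 8 were tested, and with Jagged1 against vector cells in DMSO 8 of 8 were higher, with a median log2 difference of 0.17, and 0 passed. Under MRK-003 with Jagged1 cells 8 of 8 were lower, with a median of -0.10, and 0 passed, and in the interaction 8 of 8 were positive, with a median of 0.23. The signs in these comparisons are opposite to those of most sterol genes. Under MRK-003 with vector cells, however, 8 of 8 epithelial markers were higher, with a median of 0.05, and 0 passed. The scaled sum of the 10 markers was 53.3 to 58.4 with Jagged1 cells and MRK-003, 51.7 to 67.8 with vector cells and MRK-003, 62.8 to 71.2 with Jagged1 cells and DMSO, and 56.0 to 57.2 with vector cells and DMSO. Mean log2 levels of the 8 tested markers over the reference ran from -5.09 for Krt18 to -0.05 for Krt5. Cdh1 was well above background on 1 array of 8 and Cldn4 on 4 of 8, and the part of these cells in the result was not tested. The scaled sums of 8 macrophage markers (28.1 to 40.2) overlapped between groups. Those of 8 adipocyte markers were 17.9 to 20.7 with Jagged1 cells and MRK-003, 14.6 to 22.1 with vector cells and MRK-003, 20.5 to 23.9 with Jagged1 cells and DMSO, and 16.4 to 19.2 with vector cells and DMSO. The adipocyte sums of the Jagged1 DMSO arrays lay above those of the vector DMSO arrays, with 0 of 7 tested markers passing, and their part in the result was not tested.

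**Figure D5:**
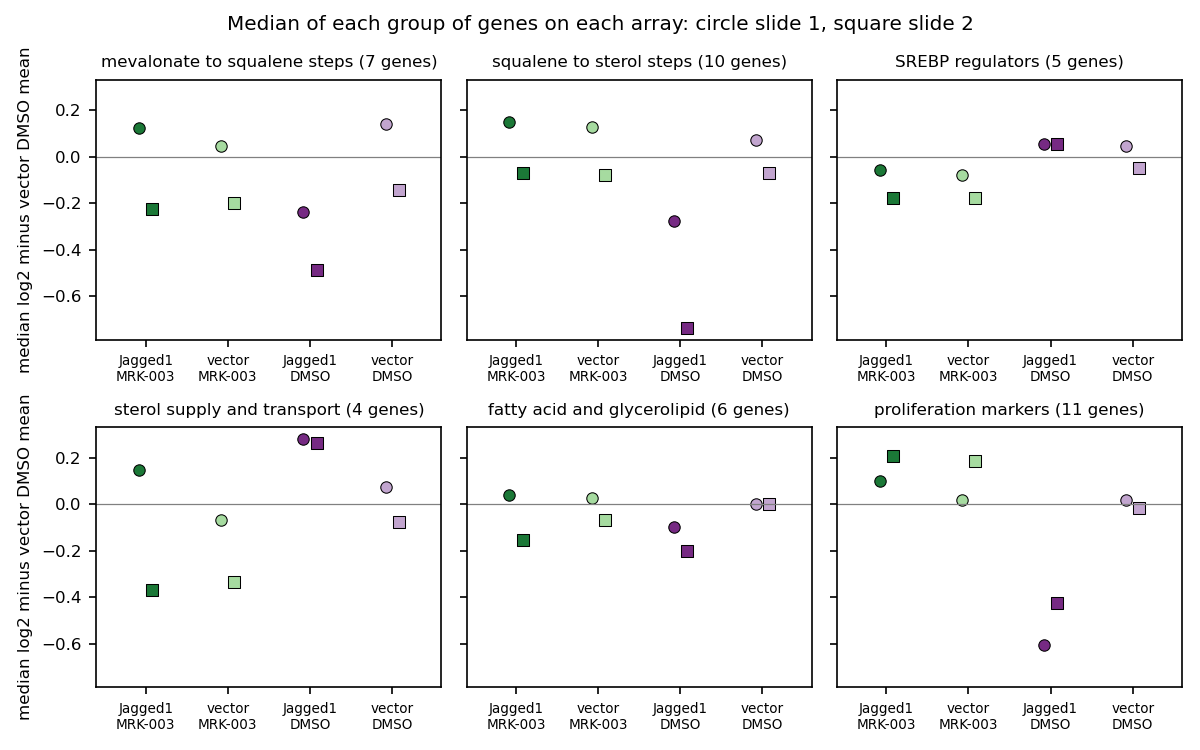
Median log2 difference from the vector DMSO mean on each array, for the 5 role groups of the 32 genes and for 11 proliferation markers, with circles for slide 1 and squares for slide 2. The squalene to sterol genes stand at -0.28 and -0.74 and the proliferation markers at -0.61 and -0.43 on the Jagged1 DMSO arrays, below all other arrays of the same panel.

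A list of 32 further genes of sterol and fatty acid metabolism was read beside these. Under MRK-003 with Jagged1 cells 22 were higher and 10 lower, with a median log2 difference of 0.23, and 2 passed (9 with the slide as a block, 8 of them higher). Of all 22796 genes tested, 244 passed as higher and 258 as lower there, or 1336 and 895 with the block. Ch25h, the enzyme that makes an oxysterol that restrains SREBP, rose by 3.48 ± 0.40 (SE, adjusted p = 0.0138), and Elovl1, an elongase of very long chains, fell by 0.77 ± 0.13 (adjusted p = 0.0433). With Jagged1 against vector cells in DMSO 24 of 32 were lower, with a median of -0.15, and 0 passed (3 with the block). Of all genes, 32 passed as higher and 9 as lower there, or 325 and 560 with the block. Ch25h then differed by -2.04 ± 0.40 and Elovl1 by 0.58 ± 0.13 (adjusted p = 0.155 and 0.241), and both passed with the block (adjusted p = 0.0194 and 0.0254).

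Single arrays bore on the calls. Without any 1 of the 4 vector arrays, Ebp and Sc5d passed under MRK-003 with Jagged1 cells and the other 3 genes did not. Without Jagged1 MRK-003 replicate 1 only Ebp passed, and without Jagged1 MRK-003 replicate 2 or either Jagged1 DMSO array 0 of 32 passed. Over 19 settings, which include the 8 without 1 array, Ebp passed in 16, Sc5d in 12, Elovl6 in 7, Sc4mol in 6 and Hmgcs1 in 4. Over the 8 fits Ebp's difference ran from 1.33 to 1.58, with adjusted p between 0.020 and 0.0945, and that of Hmgcs1 from 0.53 to 0.66, with adjusted p between 0.0656 and 0.276. The direction of Ebp, Sc5d, Sc4mol, Hmgcs1, Elovl6 and Idi1 was the same in every fit made for both comparisons.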

How the data were processed

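The data were 8 arrays (4 groups of 2), 2-colour Agilent mouse arrays with the sample in Cy3 and a common reference in Cy5, made from 175 ng of RNA each per the labels. Per the file headers, Agilent Feature Extraction 9.5.3.1 gave the deposited intensity values, and probe coordinates are on build mm7. Mean signal and local background intensity were used, with no normalization by the authors. The deposited flags gave outlier spots and spots well above background. The authors' deposited log2 value table equalled the software's processed ratio of sample to reference up to an array constant (100% of probes, to 0.02). Its column medians were 0.125 and 0.203 (vector DMSO), 0.156 and 0.182 (Jagged1 DMSO), 0.125 and 0.170 (vector MRK-003), and 0.176 and 0.167 (Jagged1 MRK-003).

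Normexp (offset 50) corrected the background, with each local background limited to the array median plus 3 MAD, because of single bright specks. The highest Cy3 background was 32904 on Jagged1 MRK-003 replicate 2, 21069 on Jagged1 DMSO replicate 2 and 2414.5 on Jagged1 DMSO replicate 1. On the other arrays it was at most 349.5. The limit changed 0.553% to 1.44% of Cy3 spots and 1.44% to 3.22% of Cy5 spots. Loess within arrays followed, with controls at weight 0. Outlier spots were left out and spots of 1 probe averaged. Each gene was its brightest probe, tested if detected in Cy3 on both arrays of some group. This left 22796 genes and removed 5003 as dim.

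limma 3.58.1 in R 4.3.3 fitted 4 group means to 8 arrays, with Benjamini-Hochberg adjusted p under 0.05 over all genes in each of 5 comparisons. Errors are SE, and 2 arrays per group limit precision. The fit without the block was tested on simulated data for Jagged1 minus vector in DMSO. The simulated noise was independent between arrays and had no slide effect, so that test says nothing of the block. Replicate number equals slide, and same-numbered arrays deviated together (r from 0.37 to 0.86 over 6 pairs of groups), so values with the slide as a block stand beside calls it changes. Other alternatives changed the background, normalization, channel, filter, probe choice and samples. Members and lists were chosen with earlier results of these data known. All 32 genes are named. Values on every array are given for genes that passed, for the member of each role with the largest difference in either main comparison, and for Insig1, Srebf1 and Srebf2. Of the further pathway genes, those that passed are named.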

Additional observations from a re-analysis of the deposited data

Results flagged for a closer look

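Ebp was the 1 gene of the 32 whose response to Jagged1 differed between DMSO and MRK-003 by a test of the difference itself. With the slide as a block its interaction was -1.18 on the log2 scale (limma, adjusted p = 0.0204), and it was -1.15 on slide 1 and -1.22 on slide 2. Without the block the same difference had an adjusted p of 0.331, and it passed in 1 of 18 settings. With the block and no limit on the local background, 0 of the 32 passed. In MRK-003 Ebp differed by 0.11 between Jagged1 and vector cells, and in DMSO by -1.08.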

How the results depend on the processing

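Counts of calls depended on the setting far more than the log2 differences did. With the slide as a replicate block, 885 genes and 7 of the 32 passed for Jagged1 minus vector in DMSO, 2231 genes and 10 of the 32 for MRK-003 minus DMSO with Jagged1 cells, 7 genes for MRK-003 minus DMSO with vector cells, and 89 genes and 1 of the 32 for the interaction. The same counts without the block were 41 and 0, 502 and 5, 0, and 2 and 0. With no limit on the local background the first comparison had 4 genes, MRK-003 with Jagged1 cells had 71 genes and 1 of the 32 (Ebp), and the interaction 0; with the replicate block added the first had 106 genes and 1 of the 32, and the interaction 0. The authors' value table gave 18 genes in the first comparison, 268 genes and 2 of the 32 (Ebp and Sc5d) for MRK-003 with Jagged1 cells, and 0 for the interaction. Cy3 alone gave 169 genes and 1 of the 32 (Ebp) for MRK-003 with Jagged1 cells, and a fit to only the groups compared gave 121 and 1 (Ebp), and 2 genes in the first comparison. Median centring and the mean of all probes each gave 1 of the 32 (Ebp) in the first comparison, and the mean of probes gave 0 genes for the interaction. The mean of probes left the values of Ebp, which had no second probe, unchanged. In the first comparison Insig2 turned to -0.046 with median centring, Stard4 to -0.15 with the mean of probes, Insig2 to -0.13 and Insig1 to 0.35 without vector DMSO replicate 1, Stard4 to -0.30 without vector DMSO replicate 2 and Insig1 to 0.20 without Jagged1 DMSO replicate 2. For MRK-003 with Jagged1 cells Stard4 turned to 0.18 with the mean of probes and 0.47 without Jagged1 MRK-003 replicate 2, and Insig1 to -0.08 and -0.25 without Jagged1 DMSO replicate 2 and Jagged1 MRK-003 replicate 1. Leaving out each array gave 0 to 30 genes for Jagged1 minus vector in DMSO, 31 to 360 genes and 0 to 2 of the 32 for MRK-003 with Jagged1 cells, and 0 to 1 genes for the interaction. Over these fits Insig2 ran from -0.13 to 0.24, Stard4 from -0.30 to 1.17 and Insig1 from -0.50 to 0.35 in the first comparison, and Stard4 from -0.97 to 0.47 and Insig1 from -0.25 to 0.64 for MRK-003 with Jagged1 cells. The median of the 32 genes then ran from -0.37 to -0.060 in the first comparison, -0.14 to 0.14 for Jagged1 minus vector in MRK-003, 0.051 to 0.46 for MRK-003 with Jagged1 cells, -0.17 to 0.03 with vector cells and -0.49 to -0.059 for the interaction. Fewer arrays were fitted in these cases, and with no slide term the slides were then unequal between groups. The cause of the other changes was not tested.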
